A study of Drosophila melanogaster with 51 samples.

Results

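The genes described here are 5 developmental regulators of chromosome 4 of Drosophila melanogaster, ey, toy, Sox102F, Actbeta and zfh2, out of 80 protein-coding genes annotated on that chromosome and 13962 in the gene table. They were chosen by what the HP1 and H3K9me3 peak lists show in their bodies and around them, with earlier results of the same lists known, so the values below are a description and carry no test. No expression was measured here, and the name developmental regulator rests on what is known of the genes.

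The assay was CUT&RUN, where a nuclease brought to chromatin by an antibody cuts out the bound DNA for sequencing, on wing imaginal discs of female wandering third-instar larvae, with at least 20 discs per library. The series has 51 libraries in 18 groups, and the temperature given is 25 °C for all of them. All values below rest on deposited peak lists without values for single libraries, so the spread between replicates and the depth per library are unknown and genotypes were not compared. The sources of the peaks can be read only from their names. On chromosome 4, 213 of 216 H3K9me3 peaks carry the name of 1 pelleted HWT library, and 3 that of a pelleted library called ywdf. HWT larvae lack the endogenous histone gene cluster (∆HisC), carry the wild-type histone transgene H3.2HWT in its place, and come from a cross that also brings in twi-Gal4 and UAS-2xEYFP. All 277 HP1 peaks of the chromosome carry the name of a merged ywdf profile from the supernatant, and what ywdf stands for is not given in the sources used here. The remaining list gives background regions, called in an anti-GFP library with the title yw and the genotype label GFP-HP1a/+. In the HP1 and H3K9me3 lists, a listed peak is a single row, and several rows can be parts of 1 call.

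Chromosome 4 is a small chromosome whose gene-bearing arm is largely packaged as heterochromatin although many of its genes are transcribed. The chromodomain of HP1a binds H3K9me3, a histone mark of heterochromatin, and together they occupy silent repeats near centromeres as well as genes of chromosome 4. The chromosome also carries several genes that act in restricted tissues. Both ey and toy encode transcription factors of the Pax6 type that direct eye development, with toy upstream of ey. Sox102F encodes an HMG-box transcription factor of the SoxD group, Actbeta a TGF-beta family ligand of the activin type, and zfh2 a zinc-finger homeodomain transcription factor known for its role in the hinge region of the wing disc.

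Of the 5 genes, 4 held no listed peak of either kind in their bodies, and zfh2 held both. Over the protein-coding genes of chromosome 4, 88.8% held an HP1 peak in the body, 70% an H3K9me3 peak, and 11.2% neither. The choice of the genes used these same counts, so nothing is read from the difference. Over all protein-coding genes in the table, the shares were 3.7% for HP1 and 1.26% for H3K9me3. The 9 chromosome 4 genes with neither were ey, toy, Sox102F and Actbeta, and besides them JYalpha, CG32006, RhoGAP102A, NfI and fd102C. Of these, JYalpha, at 879 to 5039, lies outside the span of the lists, whose first peak on the chromosome begins at 43567.

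Except for Actbeta, with 7466 bp, the members are long genes. Their median length was 23.5 kb, against 9.33 kb for the 75 other protein-coding genes of the chromosome, so that a body without a peak is a longer stretch in ey or Sox102F than in most others. Of 36 other genes of at least 10 kb, 35 held HP1 and 28 held H3K9me3, and only RhoGAP102A (10.6 kb) held neither. Of 10 other genes of at least 20 kb, all held HP1 and 9 held H3K9me3, although 2 of them held little. These were bt, a muscle gene of 52.1 kb that encodes the titin-like projectin, with 0.565% of its length in HP1 peaks and 0.960% in H3K9me3 peaks, and sv, a Pax2-type gene of 24.5 kb, with 1.53% under HP1 and no H3K9me3.

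**Figure D1:**
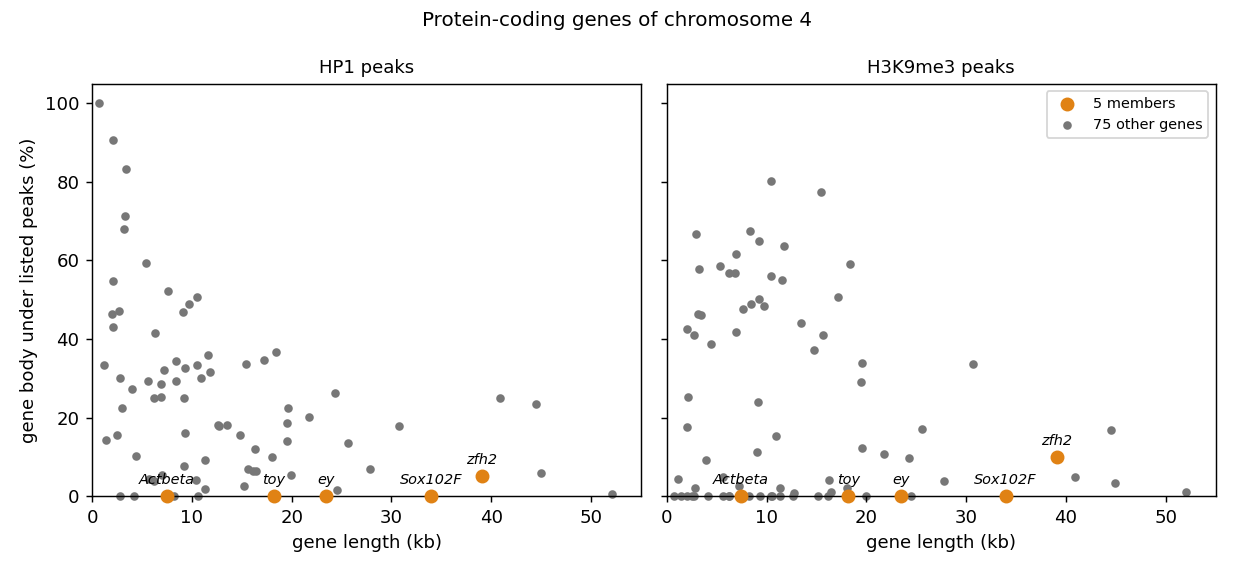
Share of the gene body under listed HP1 peaks (left, %) and H3K9me3 peaks (right, %) against gene length (kb) for the 5 members (orange) and the 75 other protein-coding genes of chromosome 4 (grey). The members ey, toy, Sox102F and Actbeta lie at 0 in both panels, and zfh2 at 5.11% for HP1 and 9.93% for H3K9me3.

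The gene ey lies on chromosome 4 at 697689 to 721173 (dm6, the build of the RefSeq gene table) and spans 23485 bp. No base of it was under an HP1 or H3K9me3 peak. The free interval around it, the stretch with no peak of either list, ran from 697020 to 722021 and measured 25.0 kb, so it followed the annotated gene closely, with 669 bp to spare at the lower-coordinate end and 848 bp at the higher-coordinate end. The gene table gives no strand, and ends are therefore named by coordinate.

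The sides of ey were unlike each other. On its lower side, 11 HP1 peaks and 7 H3K9me3 peaks lay within 20 kb and covered 35.6% and 43.9% of that stretch. The neighbour there is myo, 1633 bp away, which encodes myoglianin, another ligand of the TGF-beta family. HP1 peaks covered 59.3% of myo and H3K9me3 peaks 58.7%. The HP1 peak nearest to ey belonged to a call with a fold enrichment of 19.7 over the caller's expectation, a value the authors' caller gave for the whole call. On the higher side, the 20 kb held a single HP1 peak of 364 bp with a fold enrichment of 3.38 and no H3K9me3 peak. The neighbour there is bt, and the next H3K9me3 peak, inside bt, lay 38994 bp from ey.

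The gene toy lies at 989725 to 1007922 and spans 18198 bp, again with no base under either kind of peak. Its free interval was 44.9 kb long, from 963535 to 1008402, and was shared with most of fuss, which encodes a Ski/Sno-type transcriptional regulator. It reached 26190 bp beyond toy on the lower side and 480 bp on the higher side. The lower 20 kb held no listed peak. The higher 20 kb held 6 HP1 peaks and 2 H3K9me3 peaks, which covered 37.3% and 47.8% of it. The wider of these H3K9me3 peaks, 8893 bp with a fold enrichment of 20.0, began 1799 bp past toy and covered 50.7% of PlexA, a receptor gene of axon guidance. HP1 covered 34.6% of PlexA. The background region nearest to any member lay in fuss, 20058 bp from toy and inside the free interval of toy.

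The gene Sox102F lies at 800436 to 834393 and spans 33958 bp, all of it free of listed peaks. Its free interval measured 35.6 kb, from 798982 to 834575, with 1454 bp beyond the lower end and 182 bp beyond the higher end. The row just past the higher end was an HP1 peak of 393 bp, part of a call with a fold enrichment of 20.4. A second HP1 peak of the same call followed, and together they covered 4.44% of the higher 20 kb, which held no H3K9me3. The lower 20 kb held 7 HP1 and 4 H3K9me3 peaks, covering 22.9% and 34.9%. The bulk of them lay 10 to 20 kb away over MED26, a Mediator subunit gene covered to 50.7% by HP1 and to 80.2% by H3K9me3. The neighbour on the higher side, the forkhead-type gene fd102C, held no listed peak, so that these adjoining regulators were separated by 2 HP1 peaks alone.

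The gene Actbeta lies at 1077331 to 1084796 and is the shortest member. Its free interval was the longest of the 5 at 46.3 kb, from 1066689 to 1112943, and took in most of apolpp, which encodes the apolipophorin precursor, and nearly all of sv. The nearest HP1 peak lay 10642 bp away on the lower side and 28147 bp away on the higher side. For H3K9me3 the distances were 15708 and 30281 bp. Within 20 kb there were 4 HP1 and 2 H3K9me3 peaks, all on the lower side, where they covered 21.3% and 18.4%. Of the 5 genes, Actbeta alone still held no peak when 1 kb on both sides was counted with the body, because ey, toy and Sox102F each have an HP1 peak within 1 kb of an end.

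The gene zfh2, at 501810 to 540874, is the longest member with 39065 bp and differed from the other 4. Its body held 5 HP1 peaks of 196 to 673 bp, with fold enrichments of 2.78 to 13.4, which covered 5.11% of it. It also held 7 H3K9me3 peaks of 188 to 1269 bp, with fold enrichments of 5.06 to 7.54, which covered 9.93%. Bases under both kinds of peak came to 542 bp. For comparison, the medians over the 75 other protein-coding genes of the chromosome were 22.6% under HP1 and 12.4% under H3K9me3. Over the 10 others of at least 20 kb, closer to zfh2 in length, they were 15.8% and 7.31%. Its H3K9me3 share was thus below the first median and above the second. This placing holds for the peaks as listed. Joining the parts of each call raised the bases of zfh2 under H3K9me3 from 3879 to 7363 bp, and the medians were not recomputed for joined calls.

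These peaks were unevenly spread along zfh2. Divided into 5 equal parts from the lower end, the gene had 15.0% of part 1 under HP1 and none under H3K9me3. Parts 2 and 3 held no peak of either kind, and part 4 had 3.61% under HP1 and 2.41% under H3K9me3. Part 5, at the higher end, had 6.94% under HP1 and 47.2% under H3K9me3. That end overlaps Tdg, a thymine DNA glycosylase gene, over 2543 bp, and there 66.9% of the bases were under H3K9me3, which cannot be assigned to either gene. In the 36522 bp of zfh2 outside Tdg, H3K9me3 covered 5.96% and HP1 4.93%.

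The longest free interval that touches zfh2 was 23.1 kb and lay mostly outside it, towards Asator, holding 13.1% of the body. A second interval of 19.7 kb, from 508324 to 528024, lay wholly within the gene. The 20 kb on the higher side, over Tdg and part of Pur-alpha, had 16.0% under HP1 and 25.6% under H3K9me3. The lower 20 kb had 8.45% under HP1 and 2.27% under H3K9me3, all of it in the kinase gene Asator.

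**Figure D2:**
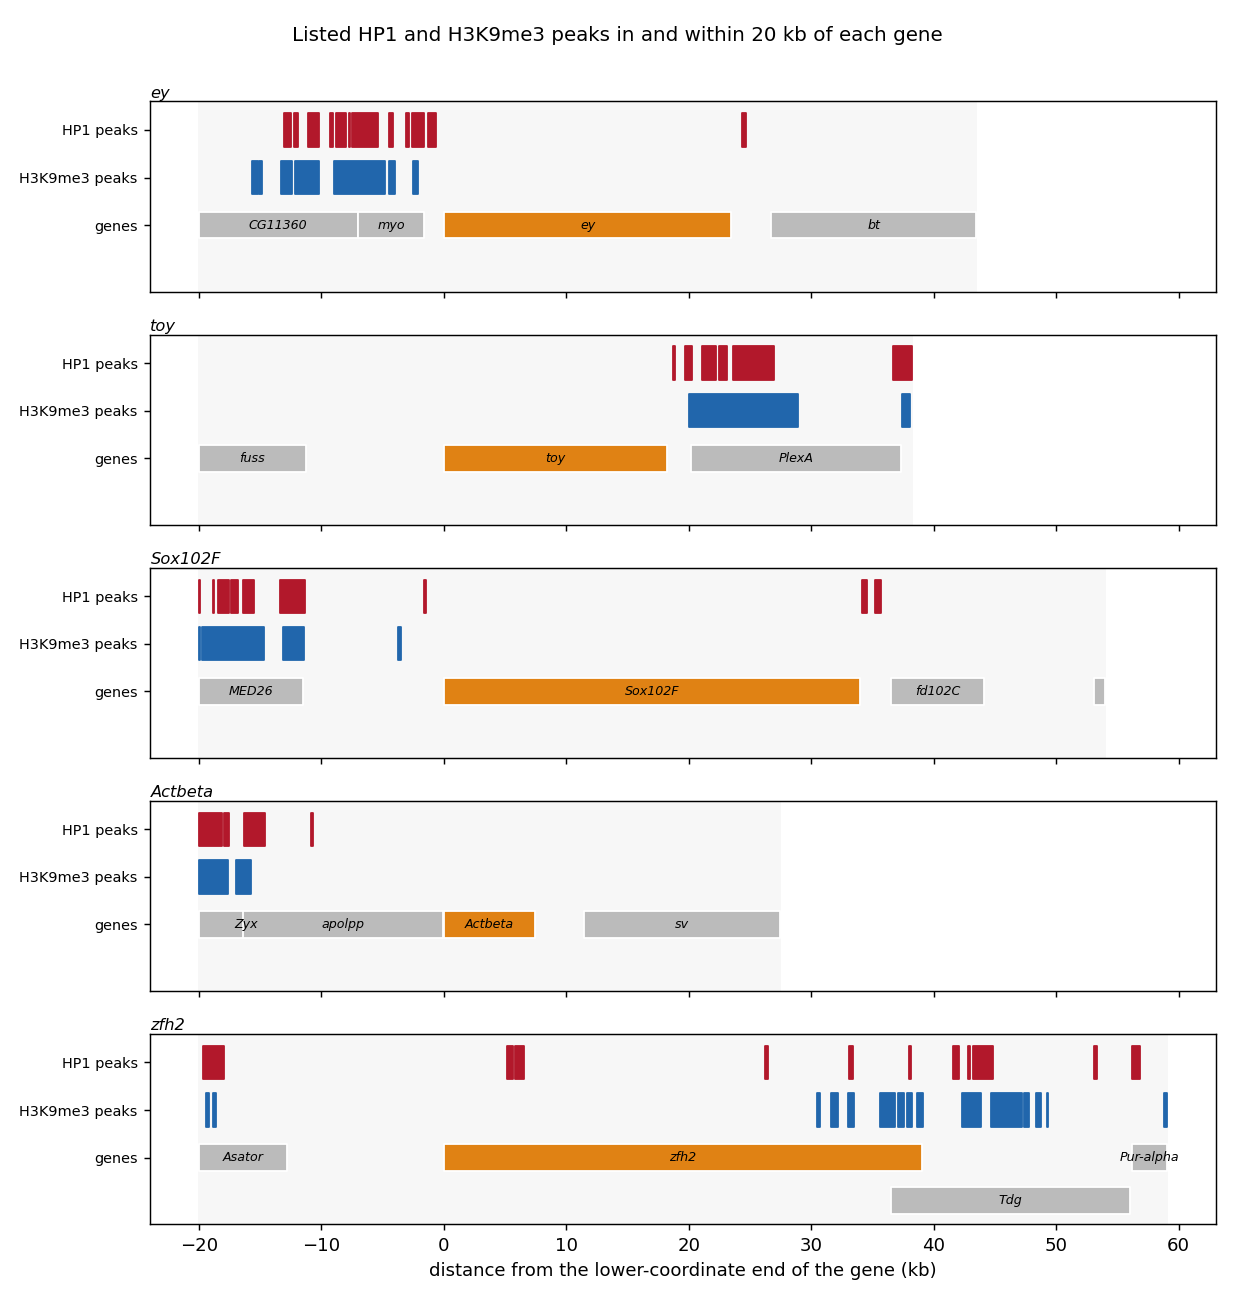
Listed HP1 peaks (red), H3K9me3 peaks (blue) and protein-coding genes (orange for the member, grey for its neighbours) against the distance from the lower-coordinate end of each member (kb), with the gene and 20 kb on each side shaded. Peaks crowd on a single side of ey, toy, Sox102F and Actbeta, and zfh2 has H3K9me3 peaks from 30.5 kb onwards, towards Tdg.

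In each of the 5 genes, 1 flank had more of its bases under both kinds of peak than the other, with the narrowest gap for HP1 at zfh2, 16.0% against 8.45%. Some other genes of the chromosome showed this too, such as Ank and CG32006, and some did not, such as RpS3A. It was not counted over the other genes and is not read as a trait of the members. The less covered flank of 20 kb had 0 to 8.45% of its bases under HP1 and 0 to 2.27% under H3K9me3, with medians of 1.82% and 0. Among 72 other protein-coding genes with both flanks between the first and the last listed peak of the chromosome, the medians were 14.3% and 7.97%. The more covered flank had medians of 22.9% under HP1 and 34.9% under H3K9me3 for the members, against 33.9% and 36.0% for the 72 others. For H3K9me3 the less covered flank was at 0 in 4 of 5 members and in 21 of the 72 others. The flanks belong to the regions the genes were chosen by, and no test was made.

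**Figure D3:**
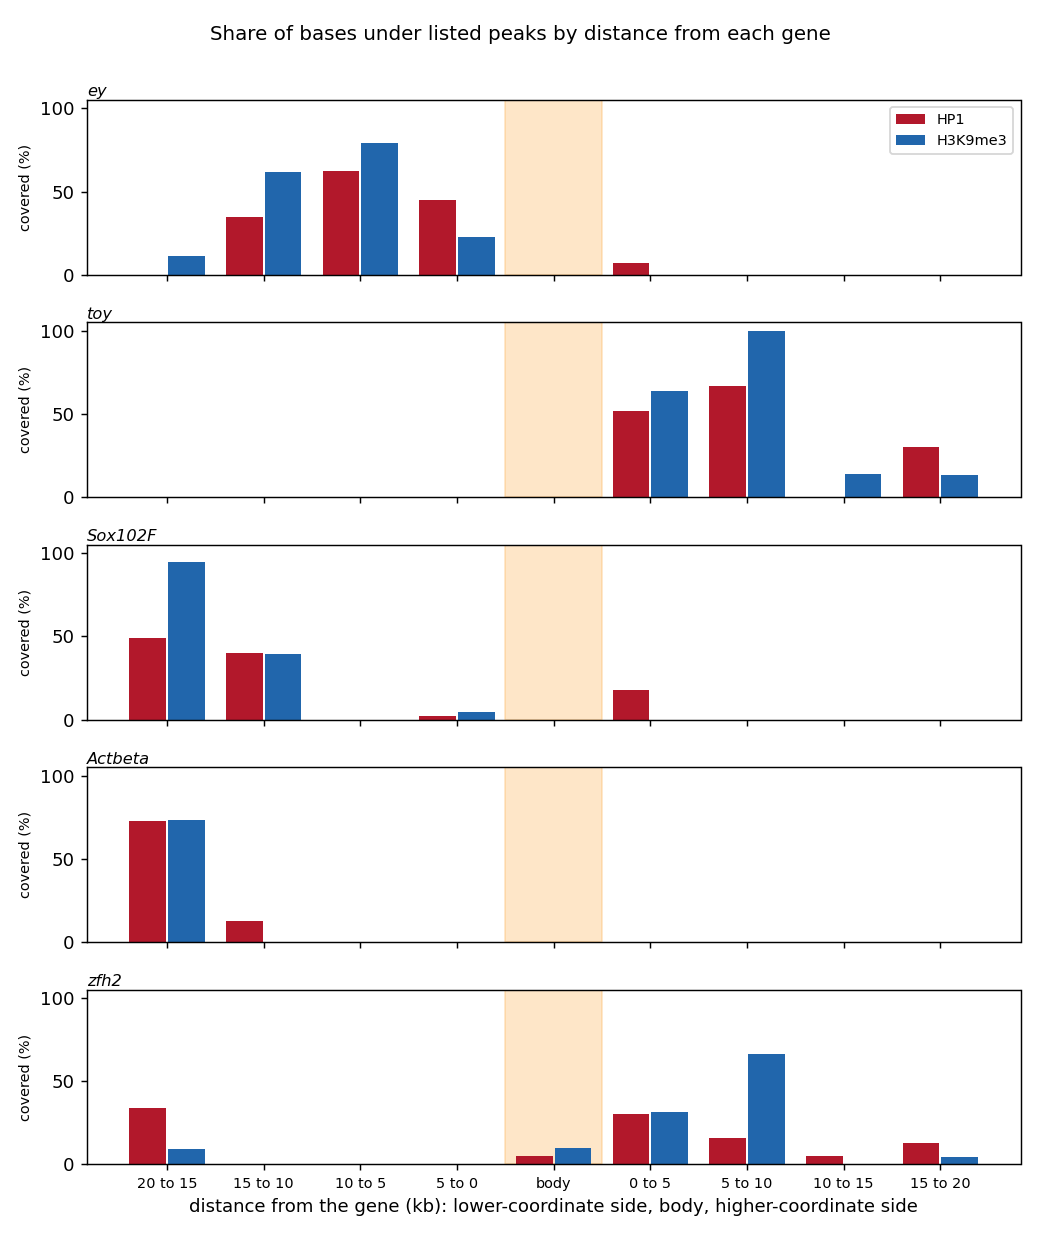
Share of bases (%) under listed HP1 peaks (red) and H3K9me3 peaks (blue) in 5 kb steps out to 20 kb on the lower-coordinate side (left) and the higher-coordinate side (right) of each member, with the gene body in the middle (shaded). On the lower side of ey, the step from 5 to 10 kb reaches 62.7% for HP1 and 79.3% for H3K9me3, and the step next to the gene 45.2% and 23.0%. On the higher side of toy, the step from 5 to 10 kb reaches 67.1% and 100%, and the step next to the gene 51.9% and 64.0%.

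Between the first and the last listed peak, 43567 to 1316639, chromosome 4 had 320 free intervals with a median of 930 bp. Some of them are gaps between parts of 1 call, such as that of 213 bp inside zfh2, and these count in the median. The 277 HP1 peaks came from 141 calls and the 216 H3K9me3 peaks from 121. Ranked by length, the interval of Actbeta came at rank 2, that of toy at 4, that of Sox102F at 6, that of ey at 7 and the longest touching zfh2 at 8. The 5 intervals together made up 175 kb of the 916 kb without a peak. The longest, of 50.9 kb, held RhoGAP102A and NfI, a nuclear factor gene, with parts of dpr7 and Syt7. That at rank 3, of 45.7 kb, reached from the zinc-finger gene dati into sequence with no protein-coding gene. That at rank 5, of 37.8 kb, lay in bt and the gap before it and was separated from that of ey by only the HP1 peak of 364 bp. By this length, the genes nearest to ey were Asator and zfh2 (23.1 kb) and pan (21.8 kb). Those nearest to toy were fuss (the same interval), dati (45.7 kb) and Actbeta (46.3 kb). Those nearest to Sox102F were bt (37.8 kb), with fuss and toy next (44.9 kb). Actbeta shared its interval with apolpp, sv and Cals, but only 0.668% of the body of Cals lay in it. The nearest to zfh2 were Asator (the same interval), pan (21.8 kb) and PMCA (21.8 kb). Genes near in this length can differ in the body: HP1 covered 33.4% of Cals and 22.6% of Asator. Of the body of Asator, 26.2% lay in the interval it shares with zfh2.

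**Figure D4:**
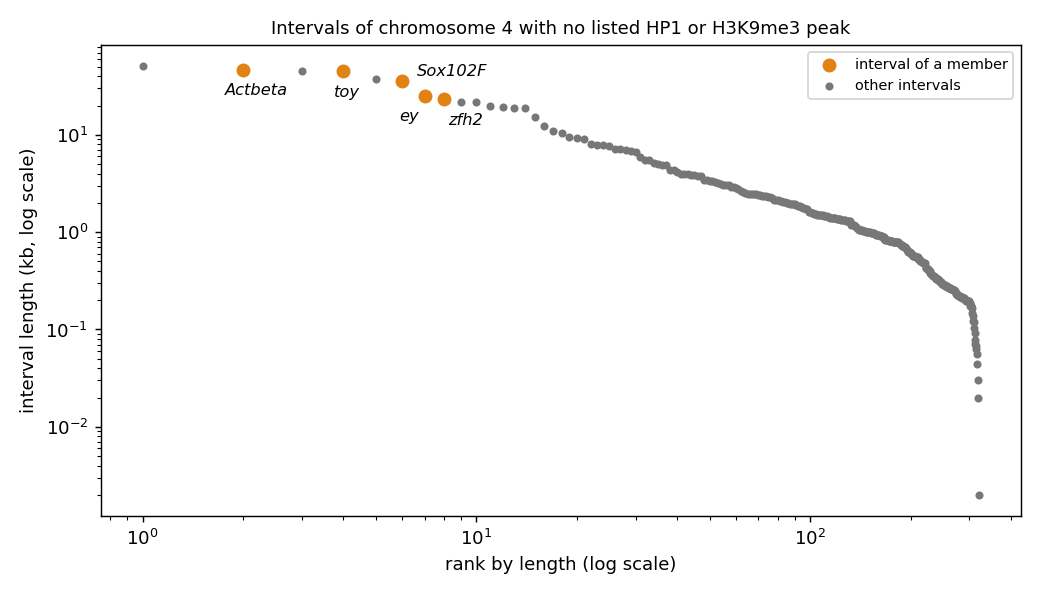
Length (kb, log scale) of the 320 intervals of chromosome 4 with no listed HP1 or H3K9me3 peak, against their rank by length (log scale), with the longest interval that touches each member in orange and the others in grey. The members' intervals measure 23.1 to 46.3 kb and lie within the 8 longest, and the median interval is 930 bp.

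Taken for H3K9me3 alone, the free stretches were longer. That around ey was 64.6 kb and ran from the body of myo into bt, and those of Sox102F and Actbeta were 59.2 and 53.5 kb. The stretch that holds toy measured 49.5 kb, and the longest that touches zfh2 measured 49.1 kb and took in the greater part of its body. Among 215 H3K9me3-free intervals, ey held rank 2, Sox102F 4, Actbeta 5, toy 6 and zfh2 7. Taken for HP1 alone, the 5 intervals were the same as for both lists together, because an HP1 peak bounds every one of them on both sides.

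A free interval is free of listed peaks, which is not the same as free of calls. The peak names carry a running call number. It never stepped back along any chromosome among the HP1 peaks, all named ywdf, or among the H3K9me3 peaks named HWT. The 198 H3K9me3 peaks named ywdf, over all chromosomes, have numbers of their own and were left out here. A jump in the numbers shows how many calls lie between listed neighbours without being listed. In the HP1 profile, 5 numbers were skipped across the interval of ey, 10 across that of Sox102F, 13 across that of toy, 14 across that of Actbeta and 6 across the longest interval touching zfh2. This gave 2.00 to 3.03 skipped numbers per 10 kb, with a median of 2.81. The 19.7 kb interval inside zfh2 skipped 8 numbers, 4.06 per 10 kb. In 11 HP1-free intervals of at least 10 kb outside the members the range was 0 to 4.41, with a median of 2.28. Along the whole chromosome the HP1 numbers, listed and skipped, came to 2.95 per 10 kb, and 141 of 376 were listed. If every call was numbered in this order, HP1 calls fell in the members' intervals about as densely as along the chromosome but did not enter the list. On that reading the 8 numbers lie within the body of zfh2, and 3 more each between its later HP1 peaks, at 528307 to 534920 and at 535267 to 539807. For toy and Actbeta, whose intervals reach far beyond the gene on 1 or both sides, the numbers do not place a call inside or outside the body. The interval of Sox102F, with 10 skipped numbers, has only 1454 and 182 bp outside the gene. That of ey, with 5, has 669 and 848 bp. Both intervals are thus mostly gene body, but the widths and positions of the unlisted calls are not given. The strength of these calls and the filter that left them out are not stated in the labels or the lists.

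For H3K9me3 the numbers gave another picture. No HWT call number was skipped across the 64.6 kb around ey, nor across the 49.1 kb that touch zfh2. In the H3K9me3-free intervals of Sox102F and Actbeta 2 numbers were skipped each, and in that of toy 3. Along the chromosome the HWT numbers, listed and skipped, came to 1.67 per 10 kb. The members' intervals had 0 to 0.606 skipped numbers per 10 kb, with a median of 0.338, against a median of 1.33 and a range of 0 to 4.79 in the 20 other H3K9me3-free intervals of at least 10 kb. Both lists show long free stretches at these genes, and only for H3K9me3 were few or no calls left unlisted there. The H3K9me3 numbers come from 1 HWT library and the HP1 numbers from a merged profile of another source, and their thresholds also differ, with a smallest listed −log10 q-value on chromosome 4 of 1.38 for H3K9me3 and 5.02 for HP1. The part that source and threshold play in this contrast was not tested.

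**Figure D5:**
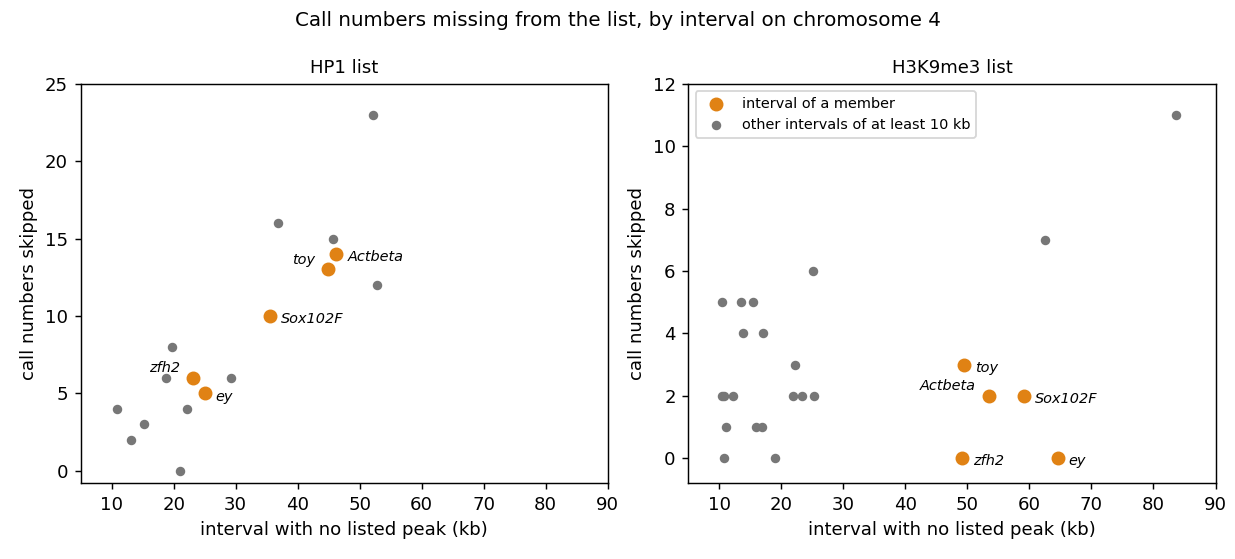
Number of call numbers missing from the HP1 list (left) and from the H3K9me3 list (right) across each interval of chromosome 4 that holds no listed peak of that list, against the length of the interval (kb), for the longest interval touching each member (orange) and other intervals of at least 10 kb (grey, among them the 19.7 kb inside zfh2). In the HP1 panel the members have 5 to 14 missing numbers, among the grey points, and in the H3K9me3 panel they have 0 to 3.

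The genes were then set beside their families and pathways. Of 10 Pax genes, only sv held an HP1 peak and none held H3K9me3; the 7 on other chromosomes, such as prd and eyg, held neither. Of 10 genes of the retinal determination network, in which ey and toy act with so, eya and dac, HP1 fell in dac (0.626% of the body) and hth (0.278%), and H3K9me3 in none. Among 8 Sox genes, HP1 covered 5.79% of Sox15, and no gene held H3K9me3. On other chromosomes, HP1 thus fell in 0 of 7 Pax genes, 2 of 8 retinal determination genes and 1 of 7 Sox genes, beside 3.7% of all protein-coding genes, and H3K9me3 in none, beside 1.26%. Counts this small say nothing particular of these families.

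In the TGF-beta and activin pathway, which has 15 genes in the list, HP1 and H3K9me3 each fell in 2 of 3 genes on chromosome 4 and in 0 of 12 elsewhere. The third gene on the chromosome, Actbeta, was chosen by these values. Without it, HP1 and H3K9me3 each fell in 2 of 14 genes, both on chromosome 4. The shares over all protein-coding genes were 88.8% and 70% on the chromosome and 3.7% and 1.26% in the whole table. Counts this small are not read against them. The chromosome 4 genes are all ligand genes. Besides Actbeta they are myo, with the values given above, and mav, which encodes maverick and was covered to 30.1% by HP1 and to 2.17% by H3K9me3. The 12 pathway genes elsewhere, among them the receptor genes babo and put and the signal transducer genes Smox and Mad, held no peak of either kind. Of the 3 chromosome 4 ligand genes, Actbeta held 0%, mav mainly HP1, and myo both marks over more than 50% of its length. Of 9 zinc-finger homeodomain and wing hinge genes, zfh2, sd (4.72% of the body) and hth held HP1, and zfh2 alone held H3K9me3. On other chromosomes that is HP1 in 2 of 8, beside 3.7% over all genes, and hth is also a gene of the retinal list. The related zfh1, on 3R, held neither.

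Finally, 17 transcription regulators of chromosome 4 were compared. HP1 fell in 12 and H3K9me3 in 9, but the list includes 4 members chosen by these values. Without ey, toy, Sox102F and zfh2, HP1 fell in 11 of 13 and H3K9me3 in 8 of 13, near the chromosome's shares of 88.8% and 70%. The 5 without either were ey, toy, Sox102F, NfI and fd102C. The others ranged widely: MED26 had 80.2% of its body under H3K9me3, lgs, which encodes the Wnt pathway cofactor Legless, 61.7%, and Hcf 41.1%. HP1 covered 47.0% of the homeodomain gene onecut and 16.0% of ci, the Hedgehog pathway effector, which held no H3K9me3.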

How the data were processed

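MACS2 2.1.2, bedtools 2.26, SAMtools 1.10, Bowtie2 2.3.4.1 and build dm6 are named in the submitters' processing notes, and the peak names point to pelleted and supernatant CUT&RUN libraries. How calls were combined and filtered is not given in the sources used here. The deposited lists give a score per peak, a fold enrichment (a ratio by the authors' caller) and a −log10 q-value. These are the authors' values for a whole call and were used only to describe or filter peaks.

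Positions were counted from 1, and a peak counted for a gene if at least 1 bp lay in it. Genes came from a RefSeq table without strand, exons or sequence, so the planned promoter windows were not analysed here and no sequence is printed. The free interval of a gene is the longest peak-free stretch that touches its body. Overlaps were computed with Python 3.11.15 and pandas 2.3.3, and the functions were tested on simulated data. No test was made. The members, the 6 gene lists and the rule for named genes (members, neighbours, genes without peaks, the longest intervals and list genes) were chosen with earlier results of these data known. Call numbers were examined after the lists had been seen.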

Additional observations from a re-analysis of the deposited data

How the results depend on the processing

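No paired analysis was possible because the lists hold no values of single replicates, which also means that depth is unknown and that leaving out a replicate could not be tried. Of 204 values under alternatives, 166 stayed within 1.5 times the value given above. That count includes values that could not change, among them zeros under alternatives that only remove peaks. The bases of ey, toy, Sox102F and Actbeta under either mark stayed at 0 when the parts of each call were joined. The other alternatives run for these bases only remove peaks, such as those under 200 bp or touching background. A body at 0 cannot change under them, so those zeros carry no information. With a −log10 q-value of at least 10 the interval of ey was 78.1 kb. With H3K9me3 peaks alone the intervals of ey, Sox102F and zfh2 were 64.6, 59.2 and 49.1 kb, and 24 chromosome 4 genes held no peak. With 1 kb added on both sides of the body 5 genes held none. Counted on the body alone, 23 genes had under 10% of it covered by HP1 and under 10% by H3K9me3. Joining the parts of each call raised the bases of zfh2 under H3K9me3 to 7363 bp. Of the 70 counts of peaks in windows, 27 moved by more than 1.5 times, mostly with windows of 10 or 50 kb. Others moved when the parts of each call were joined. HP1 counts in the body and 20 kb then fell from 12 to 5 for ey, 6 to 2 for toy and 9 to 5 for Sox102F. For Actbeta they fell from 4 to 3 and for zfh2 from 11 to 9, both within 1.5 times. H3K9me3 counts fell on joining from 7 to 4 for ey, 4 to 2 for Sox102F, 2 to 1 for Actbeta and 15 to 8 for zfh2. That of toy stayed at 2. The rest moved with a −log10 q-value of at least 10, such as the HP1 count of Sox102F, from 9 to 3. The H3K9me3 count of zfh2 fell there from 15 to 7.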
